A study of Homo sapiens with 10 samples.

Results

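The genes described here were 51 interferon-stimulated effector genes, the genes that carry out most of the antiviral work of the interferon response, and their rows were taken by gene symbol from a named list, which was drawn up with earlier results of these data known. All 51 symbols were found among the 36687 gene symbols of the deposited tables. Of these, 50 passed the filter on low counts that 15727 genes passed. The exception was *CMPK2*, a mitochondrial nucleotide kinase, which had 0 counts in 9 libraries and 2 counts in a 48 h library. Secreted interferons bind cell-surface receptors and activate kinases of the JAK family, which switch on transcription factors. These bind the interferon-stimulated response element (ISRE) and, for other interferons, the gamma-activated site (GAS) in the promoters of such genes. Many tumour cells, MDA-MB-231 among them, keep some of these genes switched on without added interferon, and the genes are known to switch together.

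MDA-MB-231 is an established line of human triple-negative breast cancer cells of the basal B subtype, and dasatinib inhibits SRC family kinases and ABL. The question was which transcripts change as the drug acts. RNA was sequenced from wild-type MDA-MB-231 cells, with 2 biological replicates each before treatment (0 h) and after 6, 12, 24 and 48 h of 100 nM dasatinib. The dose comes from the description of the experiment, since the sample labels name none. The 0 h samples carry the title Sham although their treatment field names the drug. Untreated cells kept in culture for 6, 12, 24 or 48 h were not analysed here, so every difference from 0 h also holds the time in culture, and the 2 cannot be told apart. All groups are 1 cell line, and in bulk RNA fewer cells that use a gene and less RNA per cell cannot be told apart either.

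Total gene counts per library ran from 40942913 to 49133774. The 12 h replicate 1 library stood apart. Its highest correlation with another library was 0.955, beside 0.983 to 0.987 for each of the other 9, and the median absolute log2 difference between replicates over the members was 0.449 at 12 h and between 0.0709 and 0.0922 at the other times. The counts of calls over all members are therefore given from all 10 libraries and again without that library. For fits with any other library left out the shares of all genes are not given. Their counts show only how far the calls of members moved. Counts by role, by promoter core and by other list come from all 10 libraries, except that the ISG15 system is given both ways. They are to be set beside the shares of all genes given for each time. Differences between roles were not tested. All 6 of 6 mesenchymal and basal B markers, which fit the line's label, were above 1 TPM (a level scaled by gene length and library total) in every library, with a summed level that went from 2675 TPM at 0 h to 1662 TPM at 48 h. Of 7 luminal and epithelial markers 4 were above 1 TPM in every library, with a summed level of 44.8 to 59.6 TPM. Of 6 leucocyte markers none was above 1 TPM in every library and 2 were at 0 in all, and their summed level was 0.730 TPM at 0 h and 3.95 TPM at 48 h. Of 3 endothelial markers none was above 1 TPM in every library, and their sum was 0.838 TPM at 0 h and 3.75 TPM at 48 h. Of 4 plasmacytoid dendritic cell markers none was above 1 TPM in every library and 2 were at 0 in all, and the sum was 0.613 TPM at 0 h and 2.39 TPM at 48 h. Of these low markers *CD14* (log2 fold change 2.48 ± 0.70, edgeR adjusted p = 0.0212) and *PECAM1* (2.36 ± 0.36, edgeR adjusted p = 0.000783) rose at 48 h. None of 3 fibroblast markers was above 1 TPM in every library, and their sum was at most 0.294 TPM. The part of these movements in the results was not tested.

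At 6 h the effector genes were lower as a group. Of the 50 members tested 46 had a mean above 1 TPM at 0 h. Of these 50, 27 fell against 0 h and none rose, by edgeR's quasi-likelihood test with Benjamini-Hochberg adjustment over all genes at a threshold of 0.05. Over all genes tested 1.49% fell and 1.24% rose. The median log2 fold change of the members was -0.77, beside 0.01 over all genes, and 47 of the 50 values were negative. In 43 of 50 members both 6 h libraries lay below both 0 h libraries in CPM (counts scaled to library size by TMM), which 28.8% of all genes did. The number of calls moved with the libraries used: 41 members fell and 1 rose without 12 h replicate 1 (all genes: 9.47% fell, 9.89% rose), 42 were called without 12 h replicate 2, and between 7 and 11 were called with any 1 of the 0 h or 6 h libraries left out.

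At 12 h, 19 of 50 members were lower than at 0 h and none was higher, against 3.22% of all genes lower and 3.93% higher. The median log2 fold change of the members was -0.50. Without 12 h replicate 1, 34 members were lower and 1 was higher (all genes: 8.61% lower, 8.26% higher), and with 12 h replicate 2 left out instead 38 were called. Replicate 2 at 12 h, which is 1 library, lay below both 0 h libraries for 45 members. For 34 of these it lay above both 6 h libraries, so that in these 34 its levels stood between those of 6 h and 0 h. The shares of all genes with these orders were not computed. With 0 h replicate 1 or 2 left out 4 or 5 members were called, and with any 1 of the 24 h or 48 h libraries left out between 11 and 13.

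At 24 h the median log2 fold change of the members against 0 h was 0.22, and 34 of the 50 values were positive. Against 0 h 6 of 50 members rose, namely *OAS1*, *OAS2*, *IFI44L*, *ISG20*, *PARP10* and *UBE2L6*, and none fell. That is 12% of the members, near the 9.73% of all genes that rose, while 10.2% of all genes fell. The count went from 0 (without 0 h replicate 1 or 24 h replicate 1) to 24 (without either 12 h library), with 1 to 3 when any other library was left out, and the 24 without 12 h replicate 1 held 22 members that rose and 2 that fell, *IFIT5* and *USP18* (all genes: 19.5% and 20.8%). Compared with 6 h, however, 40 members were higher at 24 h and none lower, with a median log2 difference of 0.91 (all genes: 9.00% higher). Leaving out 12 h replicate 1 made this 48 (all genes: 18.9% higher).

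At 48 h the members were higher as a group. Against 0 h 39 of the 50 members rose and none fell, where 16.0% of all genes rose and 16.3% fell. The log2 fold changes of all 50 members were positive, from 0.07 to 3.24 with a median of 0.78, and in 49 of 50 members both 48 h libraries lay above both 0 h libraries, which 37.7% of all genes did. Against 6 h 47 members were higher at 48 h (all genes: 16.2%), with a median log2 difference of 1.51, and 49 of 50 showed no overlap (all genes: 37.9%). Between 24 and 48 h 23 members rose and none fell (all genes: 1.89% rose), with a median log2 difference of 0.61. Without 12 h replicate 1 the members that rose numbered 47 for 48 h against 0 h (all genes: 24.5%), 49 against 6 h (24.3%) and 42 against 24 h (10.1%). With 0 h replicate 2 left out 25 rose against 0 h, and with 24 h replicate 1 left out 1 rose against 24 h. With any other library outside 12 h left out, between 3 and 10 rose against 24 h.

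**Figure D1:**
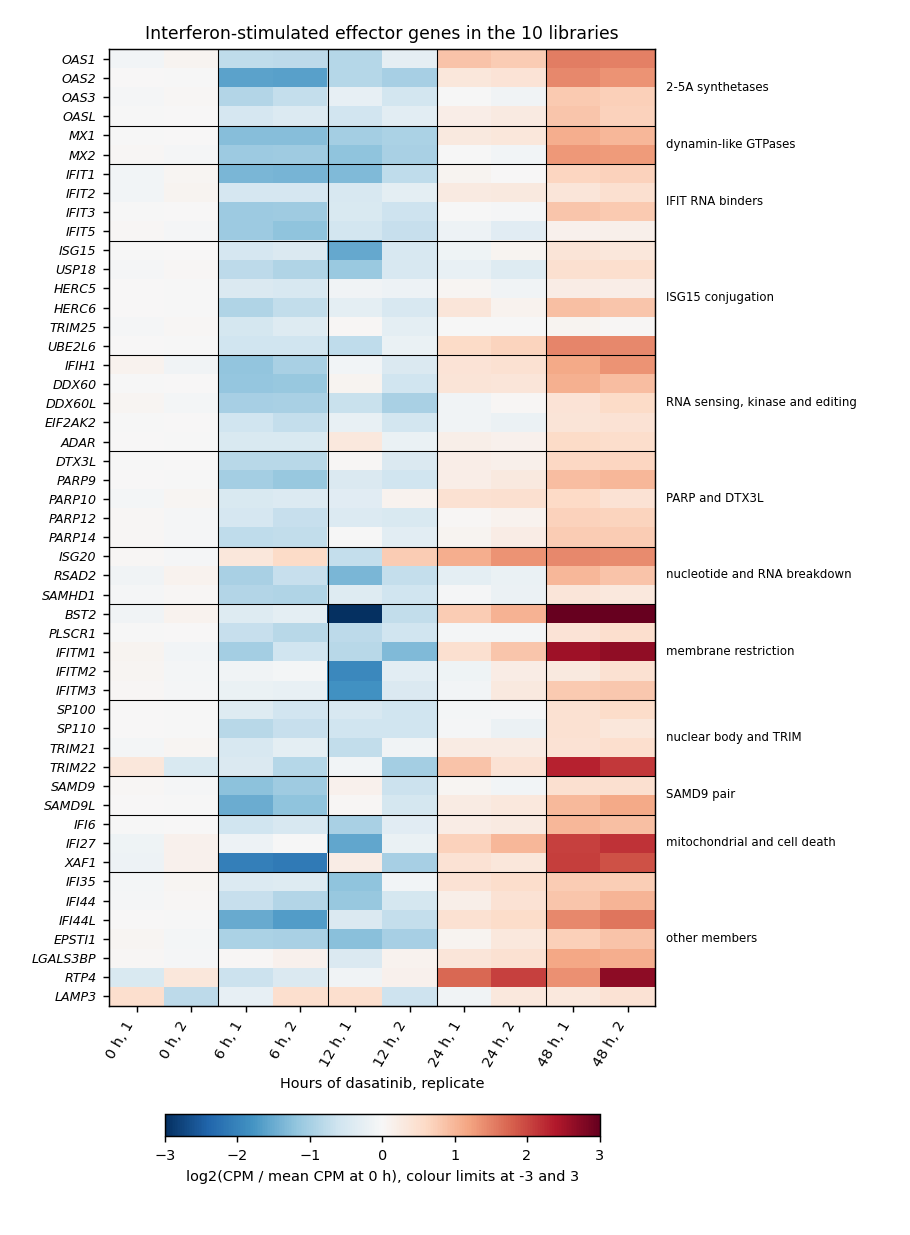
Heat map of the 50 effector genes tested (rows, grouped by role) in the 10 libraries (columns, hours of dasatinib and replicate), with colour giving log2 of the CPM over the mean CPM at 0 h. The 6 h columns are blue for most genes and the 48 h columns red for nearly all, with the deepest red for *BST2* at 48 h (log2 fold change 3.24, beyond the colour limits of -3 and 3) and a separate dark blue cell for *BST2* in 12 h replicate 1.

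Gene by gene, the members fell into 4 timing classes by their calls at 6 and 48 h against 0 h. The largest class held 24 members that fell at 6 h and rose at 48 h: *OAS1*, *OAS2*, *OAS3*, *MX1*, *MX2*, *IFIT1*, *IFIT2*, *IFIT3*, *IFI44L*, *IFIH1*, *HERC6*, *DDX60*, *DDX60L*, *DTX3L*, *PARP9*, *PARP12*, *PARP14*, *EIF2AK2*, *XAF1*, *SAMD9L*, *SP110*, *PLSCR1*, *EPSTI1* and *SAMHD1*. All 24 were also higher at 48 h than at 6 h. A class of 3 members, *IFIT5*, *USP18* and *SAMD9*, fell at 6 h and was not called at 48 h against 0 h, although all 3 were higher at 48 h than at 6 h. Another 15 members were not called at 6 h and rose by 48 h: *OASL*, *IFI6*, *IFI27*, *IFI44*, *ISG20*, *RSAD2*, *PARP10*, *BST2*, *SP100*, *TRIM22*, *LGALS3BP*, *RTP4*, *ADAR*, *UBE2L6* and *IFITM1*. The last 8, *IFI35*, *ISG15*, *HERC5*, *TRIM21*, *TRIM25*, *LAMP3*, *IFITM2* and *IFITM3*, were called at neither time, though 6 of them (not *LAMP3* or *IFITM2*) were higher at 48 h than at 6 h.

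A call at one time and not at another does not show that the classes differ, and the borders between them moved with the estimate of the spread. Without 12 h replicate 1 the first class grew. *IFIT5* and *TRIM25* fell at 6 h and were not called at 48 h against 0 h. For both of these genes the 48 h libraries nevertheless lay above both 0 h libraries. *IFI27*, *BST2*, *TRIM22*, *LGALS3BP*, *RTP4*, *IFITM2* and *IFITM3* rose only, *ISG20* was higher at both times and *LAMP3* was called at neither. By mean CPM the lowest point was 6 h in 33 members, 12 h in 15 and 0 h in 2 (*ISG20* and *LAMP3*), and without 12 h replicate 1 it was 6 h in 38, 12 h in 10 and 0 h in 2 (*ISG20* and *LGALS3BP*). The highest mean was at 48 h in all 50. Both 48 h libraries lay above the other 8 in 47 members, and both 6 h libraries lay below the other 8 in 25. At 24 h both libraries lay below both 0 h libraries in 8 members, *IFIT5*, *USP18*, *RSAD2*, *EIF2AK2*, *SP100*, *SP110*, *PLSCR1* and *SAMHD1*, and above both in 29. For these counts of lowest and highest times and of library order the shares of all genes were not computed. They describe the members only. The early change (6 h against 0 h) and the late one (48 h against 24 h), which share no library, had a Pearson correlation of -0.31 and a Spearman correlation of -0.45 across the 50 members, and a Pearson correlation of -0.04 across all genes tested. This is a description across genes, which are not replicates.

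**Figure D2:**
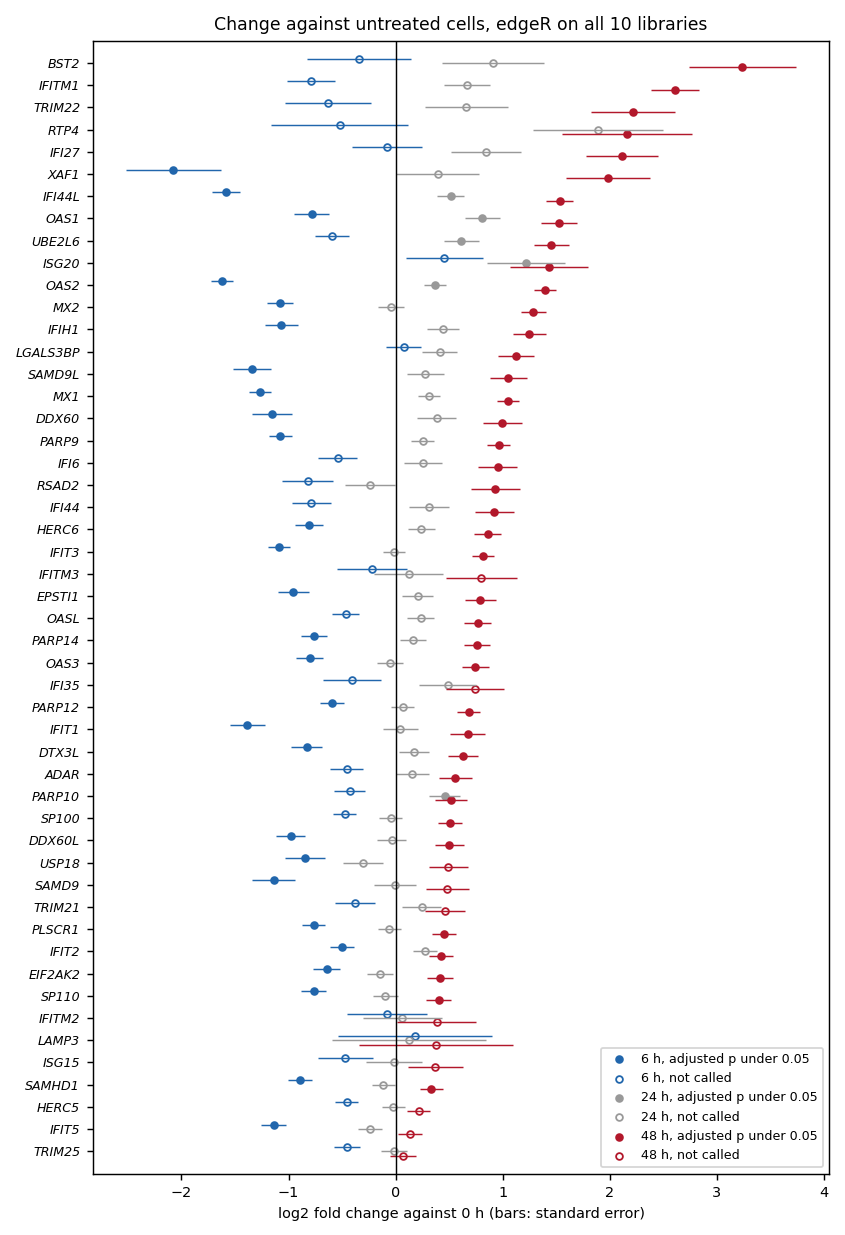
Log2 fold change against 0 h (horizontal axis, bars are standard errors) of the 50 members at 6 h (blue), 24 h (grey) and 48 h (red), with filled points for an edgeR adjusted p under 0.05. Blue points lie left of 0 for 47 members, red points lie right of 0 for all 50, and the 6 filled grey points mark the members that rose at 24 h.

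Because many of these genes are known to be switched through the ISRE and GAS elements, their promoters were read from the RefSeq sequences of GRCh38.p14, from 250 bases before to 50 bases after each annotated start. Of the 51 members 42 had a promoter in the table, and *OAS2*, *OASL*, *MX2*, *IFIT2*, *USP18*, *PARP10*, *TRIM22*, *LAMP3* and *IFITM2* had none there. The ISRE core was searched on both strands as GAAA, any 2 bases, then GAAA, and the GAS core as TTC, any 3 bases, then GAA, which reads the same on both strands. An ISRE core was present in 30 of the 42 members (71.4%), against 4.38% of the 27305 genes and 3.57% of the 35116 promoters of this length in the table. A GAS core was present in 11 of the 42 (26.2%), against 9.38% of genes and 7.66% of promoters, and 8 members held both. In 5 members, *BST2*, *EPSTI1*, *IFI27*, *IFITM1* and *MX1*, an ISRE core overlapped a GAS core. The ISRE core lay before the start in 27 members and within the last 100 bases before it in 21. These matches describe letters in a window and are not binding sites.

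The ISRE cores with their flanks are shown for the 4 members with the smallest p for 48 h against 6 h among those described in full with a core before the start, since they fell and rose with the group. Each sequence is written 5' to 3' along the gene's own strand, with the ISRE cores in capitals, so that a core on the opposite strand reads TTTC, 2 bases, TTTC.
*IFI44L* (chr1:78620254-78620414, + strand, -194 to -34 from the start): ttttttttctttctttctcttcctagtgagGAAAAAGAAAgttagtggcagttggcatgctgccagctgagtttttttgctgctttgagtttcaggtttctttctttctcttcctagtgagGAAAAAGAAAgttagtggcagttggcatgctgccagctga
*MX1* (chr21:41431824-41431893, + strand, -226 to -157): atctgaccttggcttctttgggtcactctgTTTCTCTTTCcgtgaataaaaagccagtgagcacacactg
*PARP9* (chr3:122564302-122564371, - strand, -71 to -2): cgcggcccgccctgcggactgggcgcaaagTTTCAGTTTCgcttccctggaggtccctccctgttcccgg
*IFIT3* (chr10:89327811-89327914, + strand, -186 to -83): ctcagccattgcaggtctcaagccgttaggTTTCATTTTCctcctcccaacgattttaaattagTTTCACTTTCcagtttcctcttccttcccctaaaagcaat
In *IFI44L* both cores stood in 2 exact copies of a stretch of at least 65 bases. The second copy ran to the end of the sequence shown, so the full length of the repeat was not measured. The *PARP9* core at chr3:122564332-122564341 was also the core of *DTX3L*, which is transcribed the other way, from the opposite strand. Of the 30 tested members with a core 17 fell at 6 h and 24 rose at 48 h, with median log2 fold changes of -0.79 and 0.81, and of the 11 without one 6 fell and 9 rose, with medians of -0.77 and 0.74. Whether members with and without a core differ was not tested.

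**Figure D3:**
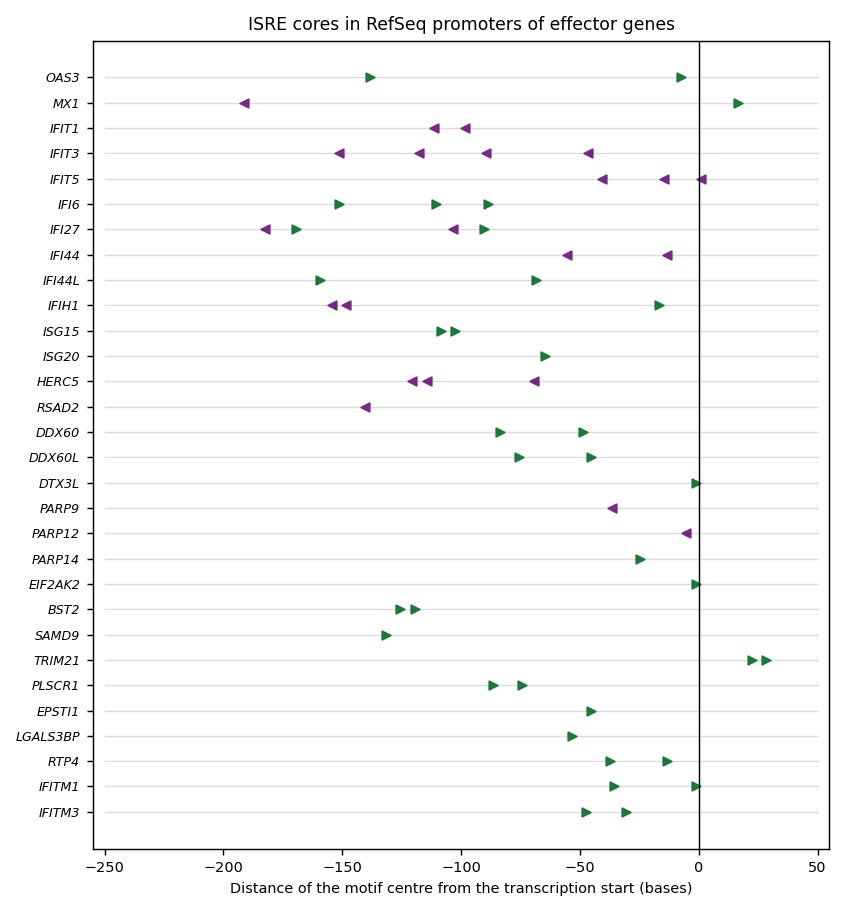
Position of each ISRE core (triangles, pointing right on the gene's own strand and left on the opposite strand) relative to the transcription start in the RefSeq promoters of the 30 members that hold one, from 250 bases before to 50 after it. Most cores lie before the start, and only 1 core of *MX1* and the cores of *TRIM21* lie wholly after it.

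The 2-5A synthetases (*OAS1*, *OAS2* and *OAS3*) sense double-stranded RNA and make the oligoadenylate that switches on RNase L, and *OASL* is a relative without that activity. Of the 4, 3 fell at 6 h and all 4 rose at 48 h. *OAS2* (chr12:112978395-113011723, + strand, GRCh38, GENCODE 44) was at 119 and 115 CPM before treatment (0 h), 38.4 and 37.5 after 6 h, 65.0 and 59.0 after 12 h, 148 and 155 after 24 h and 318 and 298.5 after 48 h. Both 6 h libraries were the lowest of the 10 and both 48 h libraries the highest, with no overlap between neighbouring times. Its log2 fold change (± standard error) was -1.62 ± 0.10, edgeR adjusted p = 6.19e-05, at 6 h and 1.40 ± 0.10, edgeR adjusted p = 1.29e-05, at 48 h, and the difference between the 48 h and 6 h levels was 3.02 ± 0.11, edgeR adjusted p = 4.32e-07. *OAS1* (chr12:112905856-112933219, next to *OAS2* and *OAS3* on that strand) was at 72.3 and 80.5 CPM before treatment (0 h), 44.7 and 44.1 after 6 h, 42.3 and 63.2 after 12 h, 138 and 129 after 24 h and 223 and 218 after 48 h. Its 12 h libraries disagreed, one at the 6 h level and one nearer to 0 h, and the 48 h libraries stood above all others. *OAS1* changed by -0.78 ± 0.17, edgeR adjusted p = 0.0361, at 6 h and 1.53 ± 0.17, edgeR adjusted p = 0.000103, at 48 h. The 6 h call of *OAS1* was lost when any 1 of the 0, 6, 24 or 48 h libraries was left out (adjusted p up to 0.303), while its rise at 48 h was called in every such fit. *OAS3* changed by -0.80 ± 0.13 and 0.74 ± 0.13 and *OASL* by -0.47 ± 0.12 (not called) and 0.77 ± 0.12. The 3 synthetases are similar in sequence, and how reads shared among them were counted is not known here.

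The dynamin-like GTPases *MX1* and *MX2*, which trap viral nucleoproteins in the cytoplasm and block capsids at the nuclear pore, lie side by side on chromosome 21 (*MX1* at chr21:41420020-41470071 and *MX2* at chr21:41361999-41409393). Both fell at 6 and 12 h and rose at 48 h. *MX1*, whose ISRE core is shown above, was at 67.9 and 70.0 CPM before treatment (0 h), 28.7 and 28.5 after 6 h, 33.8 and 35.7 after 12 h, 83.8 and 87.2 after 24 h and 147 and 139 after 48 h. The 6 h and 12 h libraries were the lowest 4 and did not overlap any other time. Its log2 fold change was -1.27 ± 0.10, edgeR adjusted p = 0.000206, at 6 h, -0.99 ± 0.10, edgeR adjusted p = 0.000695, at 12 h and 1.05 ± 0.10, edgeR adjusted p = 5.22e-05, at 48 h. *MX2* was at 43.8 and 41.6 CPM before treatment (0 h), 20.1 and 20.2 after 6 h, 18.3 and 21.6 after 12 h, 42.6 and 40.1 after 24 h and 105 and 103.5 after 48 h. Its 12 h libraries lay around the 6 h level, and at 24 h it was back at its 0 h level (-0.05 ± 0.12, adjusted p = 0.841 by edgeR). *MX2* changed by -1.08 ± 0.12, edgeR adjusted p = 0.00183, at 6 h and by 1.29 ± 0.12, edgeR adjusted p = 4.27e-05, at 48 h, and from 24 to 48 h by 1.33 ± 0.12, the only such late step among the 16 genes given in full that was called in all 10 fits with 1 library left out. The calls of both genes at 6, 12 and 48 h held in all 10 such fits.

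Some IFIT proteins bind viral RNA by its 5' end and keep it from being translated, and the IFIT genes lie together on chromosome 10. All 4 fell at 6 h and 3 rose at 48 h. *IFIT3* (chr10:89327307-89377473), with 2 ISRE cores in the stretch above, was at 269 and 271 CPM before treatment (0 h), 126 and 128 after 6 h, 198 and 176 after 12 h, 269.5 and 265.5 after 24 h and 485 and 467 after 48 h. Its 0 h and 24 h libraries were level, the 6 h libraries were the lowest and the 48 h libraries the highest. The log2 fold change of *IFIT3* was -1.09 ± 0.11, edgeR adjusted p = 0.000705, at 6 h and 0.82 ± 0.10, edgeR adjusted p = 0.000259, at 48 h. *IFIT1* (chr10:89392546-89406487) was at 416.5 and 459 CPM before treatment (0 h), 168 and 167 after 6 h, 175 and 258 after 12 h, 463 and 440.3 after 24 h and 688 and 710 after 48 h. Its 6 h libraries were the lowest and its 48 h libraries the highest, and its 24 h libraries overlapped those of 0 h. *IFIT1* changed by -1.39 ± 0.17, edgeR adjusted p = 0.0025, at 6 h and 0.67 ± 0.16, edgeR adjusted p = 0.0104, at 48 h. Its 48 h call was lost with any 1 of the 0 h or 48 h libraries left out (adjusted p up to 0.102) and its 6 h call with either 6 h library left out (up to 0.0559). *IFIT2* changed by -0.50 ± 0.11 at 6 h and 0.42 ± 0.11 at 48 h, and 13.6% of its exon bases overlap another gene. *IFIT5* fell by 1.14 ± 0.11, edgeR adjusted p = 0.000816, at 6 h, with no called rise at 48 h (0.14 ± 0.11, edgeR adjusted p = 0.39).

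**Figure D4:**
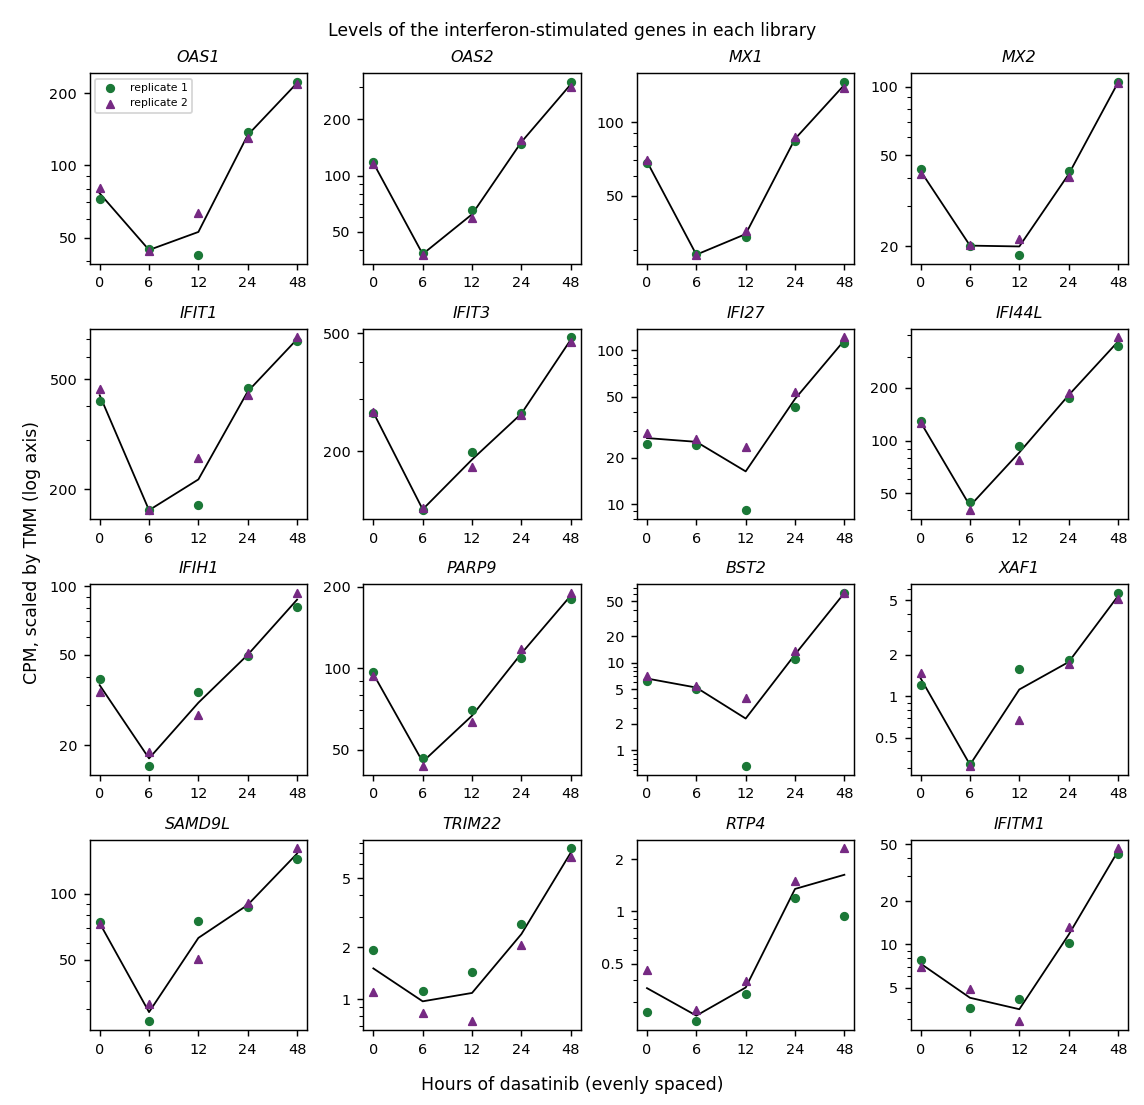
CPM (vertical log axis, scaled by TMM) of the 16 genes given in full in each library over hours of dasatinib (evenly spaced), with circles for replicate 1, triangles for replicate 2 and a line through the means. Most genes trace a dip at 6 h and a peak at 48 h, whereas *BST2* and *IFI27* dip at 12 h with a wide gap between replicates. Both libraries at 24 h lie above those of 0 h in all genes shown but *MX2*, *IFIT1* and *IFIT3*.

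Among the genes of RNA sensing, all 5 rose at 48 h and 4 fell at 6 h. *IFIH1* (chr2:162267074-162318684, - strand) encodes MDA5, the sensor of long double-stranded RNA, and was at 39.2 and 34.2 CPM before treatment (0 h), 16.2 and 18.8 after 6 h, 34.4 and 27.1 after 12 h, 49.2 and 50.7 after 24 h and 81.0 and 93.5 after 48 h. Its 6 h libraries were the lowest and its 48 h libraries the highest, while 12 h replicate 1 overlapped 0 h. The log2 fold change was -1.07 ± 0.16, edgeR adjusted p = 0.00607, at 6 h and 1.25 ± 0.15, edgeR adjusted p = 0.000204, at 48 h. The 6 h call was lost without 0 h replicate 1 or either 6 h library (adjusted p up to 0.0983). *DDX60* changed by -1.15 ± 0.19 and 1.00 ± 0.18 and its neighbour *DDX60L* by -0.98 ± 0.14 and 0.50 ± 0.13 at 6 and 48 h. *EIF2AK2*, which encodes the kinase PKR that halts translation on double-stranded RNA, changed by -0.65 ± 0.12 and 0.41 ± 0.12. *ADAR*, which edits adenosine to inosine in double-stranded RNA and so hides the cell's own RNA from these sensors, was not called at 6 h (-0.46 ± 0.15, edgeR adjusted p = 0.171) and rose by 0.56 ± 0.15 at 48 h.

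The PARP genes belong to a family of ADP-ribosyltransferases that help fight viruses and repair DNA. Of the 5 members of this group, which includes *DTX3L*, 4 fell at 6 h and all 5 rose at 48 h. *PARP9* (chr3:122527924-122564577) works in a complex with the ubiquitin ligase DTX3L, its neighbour across the shared ISRE core, and was at 96.8 and 93.9 CPM before treatment (0 h), 46.7 and 43.6 after 6 h, 70.3 and 63.4 after 12 h, 109 and 118 after 24 h and 181 and 190.3 after 48 h. No neighbouring times overlapped, and 6 h was the lowest. Its log2 fold change was -1.08 ± 0.11, edgeR adjusted p = 0.000816, at 6 h and 0.96 ± 0.11, edgeR adjusted p = 0.000115, at 48 h. *DTX3L* changed by -0.83 ± 0.14 at 6 h and 0.63 ± 0.14 at 48 h, in the same directions. *PARP12* changed by -0.60 ± 0.11 and 0.68 ± 0.11 and *PARP14* by -0.76 ± 0.12 and 0.76 ± 0.12. *PARP10* was not called at 6 h (-0.43 ± 0.15) and rose at 24 h (0.46 ± 0.15, edgeR adjusted p = 0.0494) and 48 h (0.52 ± 0.15).

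Of the 5 membrane restriction factors 1 fell at 6 h and 3 rose at 48 h, and the rises of *BST2* and *IFITM1* were the largest of the 50 members at that time. *BST2* (chr19:17402939-17405630, - strand) encodes tetherin, which holds budding virus at the cell surface, and was at 6.14 and 7.04 CPM before treatment (0 h), 5.02 and 5.37 after 6 h, 0.666 and 3.94 after 12 h, 11.1 and 13.6 after 24 h and 61.8 and 62.5 after 48 h. The 0 h and 6 h libraries lay close together, 12 h replicate 1 stood far below every other library with 28 counts, and both 48 h libraries stood far above the rest. The log2 fold change of *BST2* at 48 h was 3.24 ± 0.50, edgeR adjusted p = 0.000819, with -0.34 ± 0.49 at 6 h (adjusted p = 0.815 by edgeR). *IFITM1* (chr11:310041-315272) encodes a membrane protein that keeps viruses from fusing with the cell, and was at 7.73 and 6.97 CPM before treatment (0 h), 3.62 and 4.88 after 6 h, 4.16 and 2.91 after 12 h, 10.2 and 13.2 after 24 h and 42.7 and 46.9 after 48 h. Both the 6 h and the 12 h libraries lay below 0 h, both 24 h libraries above it and both 48 h libraries well above all. *IFITM1* was not called at 6 h (-0.79 ± 0.22, edgeR adjusted p = 0.105), fell at 12 h (-1.06 ± 0.22, edgeR adjusted p = 0.0222) and rose at 48 h (2.61 ± 0.22, edgeR adjusted p = 2.59e-05). DESeq2 on all libraries and edgeR without either 12 h library called the 6 h fall of *IFITM1*. The 12 h call was lost with either 0 h or either 48 h library left out. *IFITM2* and *IFITM3* were called at neither 6 nor 48 h (48 h: 0.38 ± 0.37 and 0.80 ± 0.33), and without 12 h replicate 1 both rose at 48 h (0.38 ± 0.09 and 0.80 ± 0.09). The 3 IFITM genes are close copies on chromosome 11, and 31.6% of the exon bases of *IFITM1* and 16.3% of those of *IFITM3* overlap other genes, so their separate levels are uncertain. *PLSCR1*, a phospholipid scramblase, fell by 0.77 ± 0.11 at 6 h and rose by 0.45 ± 0.11 at 48 h.

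The genes tied to mitochondria and cell death all rose at 48 h. *XAF1* (chr17:6755447-6775647) encodes a protein that opposes the apoptosis inhibitor XIAP, and was a low gene, with 14 to 277 counts per library and 1.22 and 1.49 CPM before treatment (0 h), 0.325 and 0.313 after 6 h, 1.57 and 0.679 after 12 h, 1.83 and 1.73 after 24 h and 5.66 and 5.06 after 48 h. The 6 h libraries were the lowest and close to each other, the 12 h libraries lay on either side of the 0 h level, and the 48 h libraries were the highest. Its log2 fold change was -2.08 ± 0.44, edgeR adjusted p = 0.0367, at 6 h and 1.98 ± 0.39, edgeR adjusted p = 0.00335, at 48 h, and 4.06 ± 0.45, edgeR adjusted p = 0.000102, for 48 h against 6 h, the widest swing of the 50 members. The 6 h call was lost with any 1 of the 0, 6, 24 or 48 h libraries left out (adjusted p up to 0.298), and 38.3% of its exon bases overlap another gene on the opposite strand, whose reads cannot be told apart without knowing the strand setting. *IFI27* (chr14:94104836-94116695) was at 24.6 and 29.2 CPM before treatment (0 h), 24.3 and 26.6 after 6 h, 9.09 and 23.5 after 12 h, 43.1 and 53.7 after 24 h and 111 and 122 after 48 h. The 0 h and 6 h libraries overlapped, 12 h replicate 1 lay far below replicate 2, and the 24 h and 48 h libraries lay above all others. *IFI27* rose at 48 h by 2.11 ± 0.34, edgeR adjusted p = 0.000978, and was at -0.08 ± 0.33 at 6 h (adjusted p = 0.941 by edgeR). *IFI6*, an inhibitor of apoptosis at the mitochondrion, was not called at 6 h (-0.54 ± 0.18) and rose by 0.95 ± 0.18 at 48 h.

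*SAMD9* and *SAMD9L*, neighbours on chromosome 7 that restrain translation and growth, both fell at 6 h, and *SAMD9L* rose at 48 h. *SAMD9L* (chr7:93130056-93148385, - strand) was at 74.1 and 72.8 CPM before treatment (0 h), 26.3 and 31.6 after 6 h, 75.2 and 50.7 after 12 h, 87.0 and 91.0 after 24 h and 143.5 and 161 after 48 h. The 6 h libraries were the lowest, 12 h replicate 1 was at the 0 h level while replicate 2 was below it, and 48 h was the highest. The log2 fold change of *SAMD9L* was -1.34 ± 0.18, edgeR adjusted p = 0.0039, at 6 h and 1.05 ± 0.17, edgeR adjusted p = 0.00123, at 48 h. Its 6 h call was lost without 6 h replicate 1 (adjusted p = 0.0721). *SAMD9* changed by -1.14 ± 0.20 at 6 h and was not called at 48 h (0.48 ± 0.20).

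Of the nuclear body and TRIM genes, 1 of 4 fell at 6 h and 3 rose at 48 h. *TRIM22* (chr11:5689610-5737089), a ubiquitin ligase, was low, with 34 to 364 counts per library and 1.91 and 1.10 CPM before treatment (0 h), 1.12 and 0.828 after 6 h, 1.43 and 0.745 after 12 h, 2.71 and 2.05 after 24 h and 7.43 and 6.58 after 48 h. Its 0 h, 6 h and 12 h libraries overlapped, and both 48 h libraries stood above all others. *TRIM22* rose at 48 h by 2.22 ± 0.39, edgeR adjusted p = 0.00173, and gave -0.63 ± 0.40 at 6 h (adjusted p = 0.511 by edgeR). *SP110* fell at 6 h (-0.77 ± 0.12) and rose at 48 h (0.40 ± 0.12). *SP100*, a scaffold of PML nuclear bodies, was not called at 6 h and rose at 48 h (0.51 ± 0.11). Its 6 h libraries (100.1 and 86.6 CPM) lay below both 0 h libraries (131.2 and 128.7 CPM). The antibody receptor *TRIM21* was called at neither time (-0.38 ± 0.18 and 0.46 ± 0.18).

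Of the 6 members of the ISG15 system, which tags proteins with the ubiquitin-like modifier ISG15, 2 fell at 6 h, 2 rose at 48 h and all 6 were higher at 48 h than at 6 h. In the fit that left out 12 h replicate 1, all 6 fell at 6 h and 5 rose at 48 h. *ISG15* itself was at 550.5 and 554 CPM before treatment (0 h), 391 and 406 after 6 h, 191 and 399 after 12 h, 508 and 584 after 24 h and 725 and 704.5 after 48 h. The 6 h libraries lay below 0 h and the 48 h libraries above it, yet neither change was called (-0.47 ± 0.26 and 0.37 ± 0.26, edgeR adjusted p = 0.435 and 0.306), and 12 h replicate 1 was below replicate 2. Without 12 h replicate 1 both were called, at -0.47 ± 0.08 and 0.37 ± 0.08. *UBE2L6*, the conjugating enzyme, rose by 1.45 ± 0.16, edgeR adjusted p = 0.000124, at 48 h and already at 24 h by 0.61 ± 0.16. *USP18*, the protease that removes ISG15 and damps receptor signalling, fell by 0.84 ± 0.19, edgeR adjusted p = 0.0437, at 6 h and was not called at 48 h (0.49 ± 0.18). Of the ligases, *HERC6* fell and rose (-0.81 ± 0.13 and 0.86 ± 0.13), and *HERC5* (-0.46 ± 0.11 and 0.21 ± 0.11) and *TRIM25* (-0.46 ± 0.13 and 0.07 ± 0.12) were called at neither time.

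The enzymes that break down RNA and nucleotides were mixed at 6 h. *SAMHD1*, which hydrolyses deoxynucleotides, fell by 0.89 ± 0.11, edgeR adjusted p = 0.00289, at 6 h and rose by 0.33 ± 0.11 at 48 h. *RSAD2*, whose product viperin makes a chain-terminating nucleotide, was not called at 6 h. Its 6 h libraries (3.67 and 4.43 CPM) nevertheless lay below both 0 h libraries (6.64 and 7.68 CPM). *RSAD2* fell at 12 h (-1.01 ± 0.24) and rose at 48 h (0.93 ± 0.23). *ISG20*, an RNA exonuclease, was at 7.02 and 6.79 CPM before treatment (0 h), 8.69 and 10.3 after 6 h, 4.19 and 11.8 after 12 h, 14.7 and 17.4 after 24 h and 18.8 and 18.4 after 48 h. It was the one member whose 6 h libraries both lay above both 0 h libraries, although not called there (0.46 ± 0.36, edgeR adjusted p = 0.618). It rose at 24 h by 1.22 ± 0.36 and at 48 h by 1.43 ± 0.36. Without 12 h replicate 1 its 6 h value of 0.46 ± 0.15 was called (edgeR adjusted p = 0.0338).

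Of the other 7 members, 2 fell at 6 h and 5 rose at 48 h. *IFI44L* (chr1:78619902-78646145), a gene of the common interferon signature with 2 ISRE cores in the repeat shown above, was at 129 and 126 CPM before treatment (0 h), 44.8 and 39.9 after 6 h, 93.7 and 77.3 after 12 h, 176 and 187 after 24 h and 347 and 389 after 48 h. The 6 h libraries were the lowest, and no neighbouring times overlapped. The log2 fold change of *IFI44L* was -1.59 ± 0.13, edgeR adjusted p = 0.000206, at 6 h, 0.51 ± 0.13, edgeR adjusted p = 0.0164, at 24 h and 1.53 ± 0.13, edgeR adjusted p = 2.34e-05, at 48 h. The calls at 6 and 48 h held with any 1 library left out, and the one at 24 h was lost without any 1 of the 0 h or 24 h libraries. *RTP4* (chr3:187368385-187372076), a chaperone of receptors, was the lowest of the genes given in full, with 10 to 102 counts per library, and was at 0.263 and 0.459 CPM before treatment (0 h), 0.232 and 0.269 after 6 h, 0.333 and 0.394 after 12 h, 1.19 and 1.50 after 24 h and 0.940 and 2.31 after 48 h. Its 24 h libraries already stood above 0 h, and the 48 h libraries differed from each other more than those of any other member at that time. *RTP4* rose at 48 h by 2.16 ± 0.61, edgeR adjusted p = 0.021, a call lost without 48 h replicate 2 (1.37, adjusted p = 0.229) or without either 0 h library. *EPSTI1* fell at 6 h (-0.96 ± 0.15) and rose at 48 h (0.79 ± 0.14). *IFI44* was not called at 6 h, although its 6 h libraries (90.5 and 79.9 CPM) lay below both 0 h libraries (142.9 and 151.3 CPM). It rose at 48 h (0.92 ± 0.18). *LGALS3BP*, a secreted glycoprotein, had its fold change of 0.08 ± 0.17 at 6 h and rose by 1.12 ± 0.17 at 48 h. *IFI35* was called at neither time (-0.41 ± 0.27 and 0.74 ± 0.27), nor was *LAMP3*, a lysosomal membrane protein at under 1 CPM in every library (0.18 ± 0.72 and 0.38 ± 0.72).

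The members differed widely in level, which can be compared between genes on the TPM scale (mean ± SD, n = 2). At 0 h the highest were *ISG15* with 2177 ± 33.2 TPM, *IFI6* with 1592 ± 46.7 and *IFITM3* with 1269 ± 43.4, and the lowest of those tested were *LAMP3* with 0.425 ± 0.246, *XAF1* with 0.700 ± 0.108, *RTP4* with 0.823 ± 0.325 and *TRIM22* with 0.864 ± 0.319. Of these lowest genes *XAF1*, *RTP4* and *TRIM22* were among the 6 members with the largest change at 48 h, while *LAMP3* was not called. *BST2*, with the largest rise, was at 20.5 ± 2.21 TPM at 0 h and 203 ± 7.36 TPM at 48 h. *OAS1* also rose, from 52.9 ± 4.57 to 160.2 ± 2.25 TPM. The 0 h level is also the base of the fold change, so level and rise are linked. The summed TPM of the 51 members was 8909 and 9051 before treatment, 6357 and 6236 after 6 h, 5162 and 7046 after 12 h, 9891 and 11334 after 24 h, and 15838 and 16237 after 48 h. No time overlapped another in this sum except 6 and 12 h.

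The low value of short members in 12 h replicate 1 stood out. Of the 12 members whose counts per TPM were under 0.5 of those of the median gene, a measure of gene length, 11 were lower in 12 h replicate 1 than in replicate 2, against 14 of the 38 longer ones. Across the 50 members the Spearman correlation of this length with the log2 ratio of the replicates was 0.553, as a description. Of these short members *ISG15*, *IFI6*, *IFI35*, *IFI44*, *TRIM21*, *IFITM2*, *IFITM3* and *BST2* had their lowest mean at 12 h with replicate 1 below replicate 2, and *IFITM1* had its lowest mean at 12 h with replicate 1 above replicate 2.

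The genes that make, receive and relay interferon were read from separate lists, whose counts at 48 h against 0 h are to be set beside the 16.0% of all genes that rose and the 16.3% that fell. Of 22 interferon ligands 17 had 0 counts in every library, among them 16 of the 17 type I genes, *IFNB1* included, and *IFNK* had at most 1 count. A count of 0 allows up to 0.0611 to 0.0733 CPM, depending on the library (3 counts, counting error only). The 4 tested were the type III genes *IFNL1*, *IFNL2*, *IFNL3* and *IFNL4*, which none of the comparisons with 0 h called. *IFNL2* was at 2.48 and 3.12 CPM before treatment (0 h), 2.97 and 1.88 after 6 h, 0.951 and 2.02 after 12 h, 2.43 and 3.52 after 24 h and 5.96 and 5.26 after 48 h. Its 48 h libraries stood above all others, and it was higher at 48 h than at 6 h (1.21 ± 0.38, edgeR adjusted p = 0.0332) but not called against 0 h (1.00 ± 0.38, edgeR adjusted p = 0.0676). *IFNL1* went from 3.99 and 5.80 CPM at 0 h to 9.76 and 11.5 CPM at 48 h and was not called (1.23 ± 0.61 against 6 h, edgeR adjusted p = 0.152). *IFNL1*, *IFNL2* and *IFNL3* are close copies whose reads may be split among them.

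Of 13 receptor and JAK-STAT genes 5 rose at 48 h, and the median log2 fold changes of the list were -0.02 at 6 h and 0.39 at 48 h. *STAT2* was at 69.3 and 70.7 CPM before treatment (0 h), 62.0 and 52.0 after 6 h, 71.2 and 75.0 after 12 h, 94.0 and 110.4 after 24 h and 150.3 and 159 after 48 h. It was not called at 6 h (-0.30 ± 0.12) and rose at 48 h (1.14 ± 0.13, edgeR adjusted p = 0.000107). The receptor chain *IFNAR1* was near 58 CPM at 0 h and was not called at 48 h (-0.10 ± 0.14), and *IRF9* was not called either (0.38 ± 0.20). Among 6 regulatory factors of 8 listed, 1 rose at 48 h, *IRF7*, the amplifier of interferon production (0.52 ± 0.16, edgeR adjusted p = 0.0277), and none was called at 6 h. At 1 of 6 this is near the 16.0% of all genes.

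Of 11 nucleic acid sensing genes tested, 3 fell at 6 h and, at 48 h, 4 rose and 2 fell against 0 h. *RIGI*, the sensor of RNA with a 5' triphosphate, was at 200.3 and 210.1 CPM before treatment (0 h), 87.3 and 88.1 after 6 h, 179 and 128 after 12 h, 227 and 200.4 after 24 h and 348 and 352 after 48 h. It was lowest at 6 h and highest at 48 h (-1.23 ± 0.15, edgeR adjusted p = 0.00277, and 0.77 ± 0.15, edgeR adjusted p = 0.00308). *IFI16*, a DNA sensor, changed by -0.62 ± 0.11 and 0.65 ± 0.11. In the other direction *CGAS*, the enzyme that senses cytosolic DNA, fell by 0.56 ± 0.12, edgeR adjusted p = 0.00621, at 48 h, and *TRAF3* fell by 0.35 ± 0.12. Of 12 negative regulators, none was called at 6 h, and 2 rose and 3 fell at 48 h, which is near the 16.0% and 16.3% of all genes. Those with the smallest p for 48 h against 6 h were *PIAS3* (0.79 ± 0.11) and *IRF2BP2* (0.56 ± 0.11), which were higher at 48 h, and *PIAS4* (-0.49 ± 0.12) and *PTPN2* (-0.43 ± 0.12), which were lower. Of 17 guanylate-binding protein and MHC class I genes, 1 fell at 6 h, and 5 rose and 1 fell at 48 h. *GBP2* was at 46.6 and 55.7 CPM before treatment (0 h), 44.4 and 44.2 after 6 h, 89.5 and 113 after 12 h, 219 and 207 after 24 h and 213 and 206 after 48 h. Its 6 h libraries lay just below 0 h and all later libraries above it, and it rose by 2.03 ± 0.14, edgeR adjusted p = 8.37e-06, at 48 h. *NLRC5*, the activator of MHC class I genes, rose by 0.50 ± 0.14, and *TAP2*, a peptide transporter, fell by 1.52 ± 0.41.

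**Figure D5:**
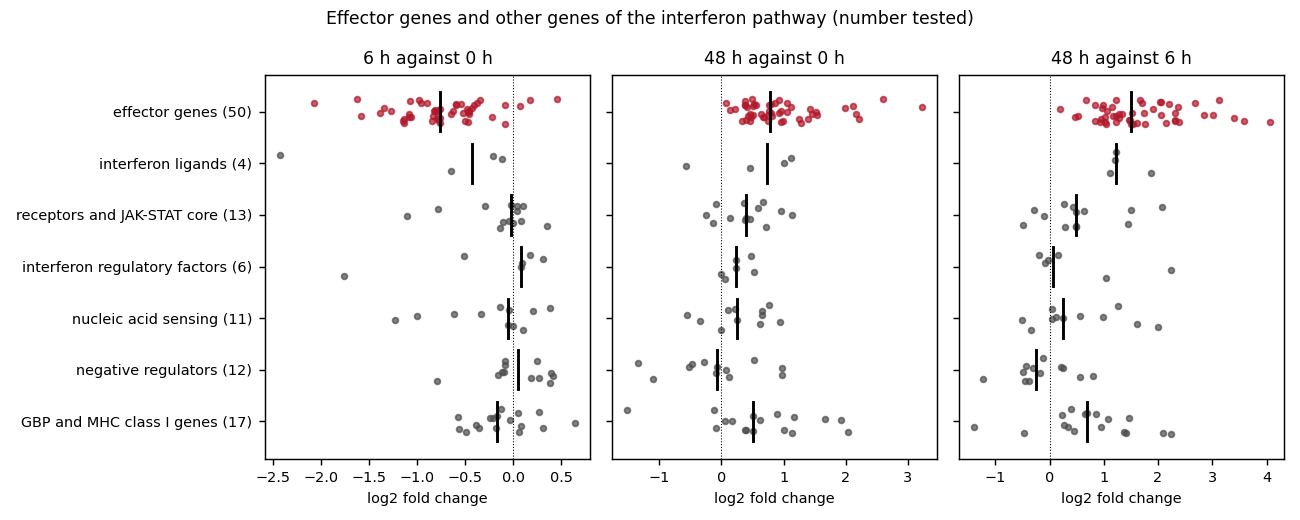
Log2 fold changes of single genes (points) in the effector gene list (red) and 6 other interferon pathway lists (grey, number tested in parentheses) for 6 h against 0 h, 48 h against 0 h and 48 h against 6 h, with a bar at each list's median. At 6 h the effector genes centre at -0.77 while the receptor and JAK-STAT core centres at -0.02, and at 48 h against 6 h the effector genes centre at 1.51.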

How the data were processed

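RNA of MDA-MB-231 cells was extracted with TRIzol and RNeasy columns, made into libraries with an NEBNext Ultra RNA kit and sequenced as 150-base paired reads on a NovaSeq. Raw counts per gene symbol were deposited by the authors in a table made with Trim Galore, STAR 2.5.2b on hg38 and featureCounts, and a table of TPM that the authors derived for the same libraries. Annotation and strand setting are not given in the sources used here. Sample groups came from the sample labels, with replicates 1 and 2 of each time as separate samples called biological replicates.

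Counts were filtered with filterByExpr, scaled by TMM and tested with edgeR's quasi-likelihood test (edgeR 4.0.16, R 4.3.3) in one fit over all 10 libraries, with Benjamini-Hochberg adjustment over 15727 genes and a threshold of 0.05. All 7 comparisons named in the text came from this fit. Alternatives used limma 3.58.1 on log2(TPM + 1) and log2(TPM + 0.1), DESeq2 1.42.0, no filter, other size factors, the compared groups alone, a replicate block, and each library left out, where the time left with 1 library was assumed to vary like the others. The edgeR, DESeq2 and limma steps were tested on simulated data. Totals ran from 40942913 to 49133774 counts, and the limit of a 0 count covers counting error only.

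The members, their roles and the other lists were chosen with earlier results of these data known. Values in every library were given for the 10 members with the smallest p for 48 h against 6 h, the 6 with the largest change at 6 h and the 6 with the largest at 48 h, which made 16 with *IFI44L*, *OAS2* and *MX1* among them in any case. The values of *ISG15* and *ISG20* in every library were added after they were seen. From each other list, up to 2 genes per direction with the smallest p for 48 h against 6 h were named where they passed the threshold, and *IFNL1*, *IFNAR1* and *IRF9* were added after their values were seen. Gene coordinates are those of GENCODE 44 on GRCh38, matched by symbol, and promoters are from RefSeq on GRCh38.p14. A result of the receptor and JAK-STAT list is not reported here.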

Additional observations from a re-analysis of the deposited data

Results flagged for a closer look

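Each of the 16 effector genes given in full had a change at 48 h that differed from its change at 6 h, both against 0 h, by the edgeR test of 48 h against 6 h, which tests that difference itself. On the log2 scale the 48 h change minus the 6 h change was 4.06 for *XAF1*, 3.58 for *BST2*, 3.40 for *IFITM1*, 3.12 for *IFI44L*, 3.02 for *OAS2*, 2.85 for *TRIM22*, 2.68 for *RTP4* and 2.39 for *SAMD9L*. It was 2.37 for *MX2*, 2.32 for *MX1*, 2.32 for *IFIH1*, 2.31 for *OAS1*, 2.20 for *IFI27*, 2.06 for *IFIT1*, 2.04 for *PARP9* and 1.90 for *IFIT3*. The genes were chosen in part by this comparison, so the values describe them. In 15 of the 16 the call held in all 10 fits with 1 library left out. The exception was *RTP4*, whose call was lost without either 6 h library or without 48 h replicate 2 (adjusted p up to 0.104).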

How the results depend on the processing

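Of 133 alternative counts of members called, 81 lay within 1.5 times the reported count. At 6 h against 0 h (27) the count was 42 with edgeR and 42 with DESeq2 on the compared groups alone and 13 with limma on unfiltered TPM. At 12 h (19) it was 0 with edgeR on those groups alone (21 at an unadjusted p under 0.05), 5 with DESeq2 on them, and 11, 12 and 7 with limma on log2(TPM + 1), log2(TPM + 0.1) and unfiltered TPM. At 24 h (6) it was 11 without the count filter, 11 with DESeq2, and 24 and 22 with edgeR and DESeq2 on the groups alone. At 48 h against 24 h (23) it was 36 without the filter, 36 with DESeq2, 42 and 42 on the groups alone, and 14, 13 and 7 with limma. With 1 library left out the counts against 0 h ranged between 7 and 42 (6 h), 4 and 38 (12 h), 0 and 24 (24 h) and 25 and 47 (48 h). Those against 6 h ranged between 28 and 48 (24 h) and 41 and 49 (48 h), and that of 48 h against 24 h between 1 and 42. Among these alternatives the shares of all genes called are given above only for the fit without 12 h replicate 1. The cause was not tested.

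The deviations of same-numbered libraries correlated between -0.0368 and 0.104, so libraries with the same number shared little offset in expression. Whether the cultures were set up in pairs is not known here. With the number as a block the counts were 27, 19, 7 and 39 at 6, 12, 24 and 48 h against 0 h, 41 and 48 for 24 h and 48 h against 6 h, and 21 for 48 h against 24 h.

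Of 2128 alternative values of the 16 genes given in full, 1843 kept direction and call, 170 lost the call, 102 gained one and 13 changed sign, none of the 13 called. At 24 h these were *MX2* (0.0400, 0.0432 and 0.0400 in the 3 limma fits), *IFIT3* (0.0747, 0.0748 and 0.0747) and *IFIT1* (-0.0268 without 0 h replicate 1, range to 0.108 with either 0 h library left out). The others were *IFI27* at 6 h (0.0391 and -0.202 without 0 h replicate 2 and 1), *XAF1* (0.205 and -0.987) and *SAMD9L* (0.0266 and -0.528) at 12 h without 12 h replicate 2 and 1, *RTP4* at 12 h (-0.340 and 0.452 without 0 h replicate 1 and 2, -0.124 without 12 h replicate 2) and *RTP4* at 48 h against 24 h (-0.514 and 0.779 without 48 h replicate 2 and 1). Depth limits *RTP4*, *XAF1*, *LAMP3* and *TRIM22* most, whose lowest libraries held 10, 14, 12 and 34 counts.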
